A study of Homo sapiens with 12 samples.

Results

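Collagens are secreted or membrane-bound proteins built from 3 chains that wind into a triple helix, and each chain has a gene of its own. All annotated protein-coding genes named COL, a number, A and a number were taken as the collagen genes, which gave 44 genes of 58735 in the table, 19951 of them protein coding. Counts of polyadenylated RNA were measured in 2 human anaplastic thyroid carcinoma cell lines; this cancer is the undifferentiated, fast-growing form that arises in the thyroid. KHM-5M, labelled BRAF V600E, was grown in RPMI-1640, and TTA-1, labelled wild type for BRAF, was grown in DMEM, both media holding 10% fetal bovine serum. In 6-well plates the cells were exposed over 24 hours to DMSO or to GDC-0994 at 1 µM. GDC-0994, also called ravoxertinib, inhibits ERK1 and ERK2, the kinases that act downstream of BRAF and MEK. The 4 groups, KHM-5M DMSO, KHM-5M GDC-0994, TTA-1 DMSO and TTA-1 GDC-0994, hold 3 libraries each. The labels do not say whether the 3 came from separate cultures, so p-values measure only the spread between these libraries.

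Fibrillar collagens, such as types I, III and V, assemble into the banded fibres of connective tissue. Type IV forms the sheet-like network of basement membranes, on which thyroid follicles rest, and type VI forms beaded filaments beside it. FACIT collagens sit on the surface of fibrils, transmembrane collagens span the cell membrane, and most types need chains from more than 1 gene. Fibroblasts are the usual main source of fibrillar collagen in a tissue, while epithelial cells commonly make type IV, type VII and type XVII.

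Total counts were 14952970 to 18389915 per library, so 3 counts in a library correspond to 0.158 to 0.207 CPM (the count scaled to library size). Of the thyroid markers, PAX8 was present at a mean of 210.2 CPM in KHM-5M DMSO and 3.59 CPM in TTA-1 DMSO, while thyroglobulin (TG), TSHR and SLC5A5 had 0 to 8 counts in any library. Of the 4 epithelial markers, KRT8 and KRT18 were at a mean of 472 CPM or more in all 4 groups and EPCAM at 3.45 to 5.69 CPM. CDH1, the epithelial cadherin, had 0 to 1 counts in KHM-5M DMSO and a mean of 1.07 CPM in KHM-5M GDC-0994, 1.94 CPM in TTA-1 DMSO and 3.40 CPM in TTA-1 GDC-0994. The 3 blood markers summed to 0.138 to 2.66 CPM over the libraries, with CD14 at 25 to 46 counts in KHM-5M and PTPRC at 0 in all but the KHM-5M GDC-0994 group, where it had up to 3. The 3 endothelial markers summed to 0.132 to 3.54 CPM, with VWF at 18 to 21 counts in KHM-5M DMSO and 31 to 64 in KHM-5M GDC-0994, and CDH5 at 0 to 8 counts in any library. Each line stands for 1 BRAF genotype and 1 medium, so line, genotype and medium cannot be told apart. The counts are of whole cultures, in which fewer cells of a type and less RNA per cell cannot be told apart.

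Of the 44 collagen genes, 27 had enough counts to be tested, 13 had too few, and 4 had 0 counts in all 12 libraries (COL9A1, COL20A1, COL22A1 and COL23A1). The 13 genes with low counts were COL1A2, COL2A1, COL11A1 and COL24A1 among the fibrillar genes, COL4A3 of type IV, COL6A5 and COL6A6 of type VI, COL19A1 and COL21A1 of the FACITs, COL10A1, COL25A1, COL26A1 and COL28A1. A gene is called expressed here at a mean of at least 1 FPKM (fragments scaled to gene length and library size) in a group. By that measure KHM-5M expressed 15 collagen genes with DMSO and 16 with GDC-0994, and TTA-1 expressed 8 with either. In all, 17 were expressed in at least 1 group and 7 in all 4 groups. The deposited FPKM divides by the length of all annotated exons of a gene together, which for COL4A2 is 19293 bases against 6494 bases in its longest coding transcript. Divided by the longest coding transcript instead, 16, 17, 9 and 9 genes reached 1 FPKM in the 4 groups, in the same order.

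In KHM-5M DMSO the highest collagen level per length was that of COL1A1, at 70.8 ± 1.30 FPKM (SD, n = 3), followed by COL6A2 at 44.4 ± 1.33 FPKM, COL6A1 at 21.9 ± 0.884 FPKM, COL18A1 at 16.3 ± 1.16 FPKM and COL4A2 at 14.8 ± 0.440 FPKM. COL18A1 and COL4A2 differed by less than their SDs together, and by the longest coding transcript COL4A2, at 43.9 ± 1.31 FPKM, stood above COL6A1, at 27.6 ± 1.11 FPKM. COL7A1, COL5A1, COL5A2, COL13A1, COL4A1, COL12A1, COL9A3, COL27A1, COL8A1 and COL16A1 followed, between 8.39 and 1.67 FPKM. The neighbours COL5A1 (7.95 ± 0.503 FPKM) and COL5A2 (7.55 ± 0.284 FPKM) differed by less than their SDs together. So did COL7A1 (8.39 ± 0.357 FPKM) and COL5A1, and COL13A1 (6.80 ± 0.362 FPKM) and COL4A1 (6.55 ± 0.120 FPKM). By the longest coding transcript COL4A1, at 14.6 ± 0.266 FPKM, stood above COL7A1, at 10.0 ± 0.426 FPKM. In TTA-1 DMSO the order was COL6A2 at 50.1 ± 6.69 FPKM, COL6A1 at 37.3 ± 5.03 FPKM, COL12A1 at 13.1 ± 1.65 FPKM, COL27A1 at 4.73 ± 0.583 FPKM, COL18A1 at 3.71 ± 0.887 FPKM, COL5A1 at 3.44 ± 0.657 FPKM, COL7A1 at 3.18 ± 0.448 FPKM and COL9A2 at 1.17 ± 0.388 FPKM. The 3 genes COL18A1, COL5A1 and COL7A1 differed by less than the SD of COL18A1 in TTA-1, so their order is not resolved.

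**Figure D1:**
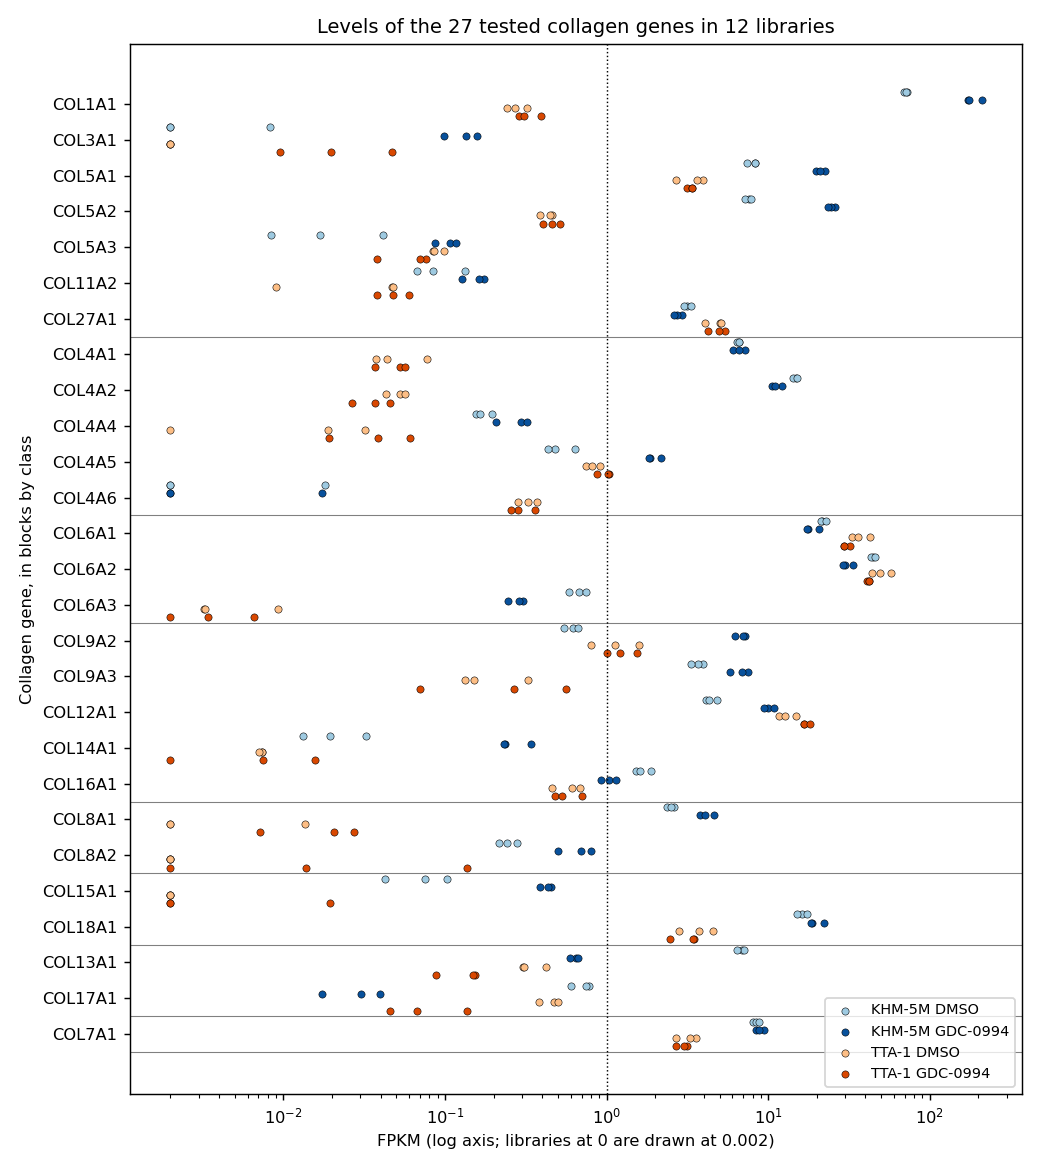
FPKM of the 27 tested collagen genes (log axis, 0 drawn at 0.002) in each library, in blocks by class from fibrillar (top) to anchoring fibril (bottom), with 4 colours for the groups and a dotted line at 1 FPKM. COL1A1 lies at 69.4 to 210.2 FPKM in the 6 KHM-5M libraries and at 0.242 to 0.394 FPKM in the 6 TTA-1 libraries, while COL6A1 and COL6A2 lie above 17 FPKM in all 12.

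Collagen genes took 0.211% ± 0.00520 (SD, n = 3) of all counts in KHM-5M DMSO and 0.358% ± 0.0218 in KHM-5M GDC-0994. The 3 treated libraries, at 0.382%, 0.340% and 0.353%, all lay above the 3 DMSO libraries, at 0.207%, 0.210% and 0.217%. COL1A1 alone went from 0.0721% ± 0.00191 to 0.192% ± 0.0163, and the other collagen genes together from 0.139% ± 0.00447 to 0.167% ± 0.00575. In TTA-1 the share was 0.0830% ± 0.00744 with DMSO and 0.0798% ± 0.00161 with GDC-0994, and the libraries of the 2 groups overlapped. Type VI took the largest part there, 0.0462% ± 0.00633 with DMSO, where fibrillar genes took 0.0110% ± 0.00164.

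**Figure D2:**
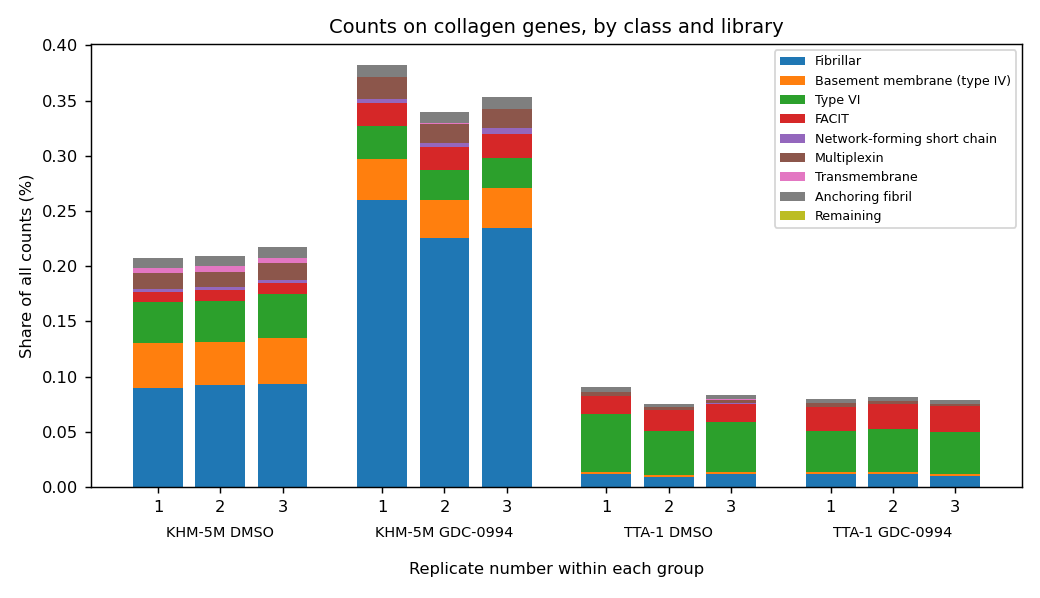
Share of all counts (%) on collagen genes in each of the 12 libraries, stacked by class. On average the fibrillar block of KHM-5M is 0.0919% with DMSO and 0.240% with GDC-0994, and that of TTA-1 is 0.0110% and 0.0112%.

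The first comparison asks which collagen genes changed under the ERK inhibitor in the BRAF V600E line. In KHM-5M, 20 of the 27 tested collagen genes changed, where 49.8% of all 16218 genes tested did. Of these, 13 rose, against a background of 24.6% of all genes, and 7 fell, against 25.1%. Here and below, rose and fell stand for an adjusted p under 0.05 in edgeR's quasi-likelihood test. The median log2 fold change of the 27 was 0.67, beside 0.02 over all genes tested. Of the 27, 5 (COL3A1, COL5A3, COL11A2, COL14A1 and COL15A1) passed the filter on low counts only with the KHM-5M GDC-0994 libraries included, and 4 of them were among the rises. Since a gene that passes through the group where it is high had to differ, these 4 add no support to the count. Among the other 22 tested genes 9 rose and 7 fell, with a median of 0.15. Of these falls, COL17A1 passed the filter only with DMSO libraries, where it is high, and those of either line were enough.

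Of the 7 fibrillar genes tested, 5 rose (COL1A1, COL3A1, COL5A1, COL5A2 and COL5A3) and none fell. COL3A1 and COL5A3 passed the filter only with the treated libraries included, as given above. COL1A1 (ENSG00000108821, minus strand of chromosome 17, 50183289 to 50201632, GRCh38) encodes the main chain of type I collagen, the most abundant protein of bone, skin and tendon. Its level was 69.4, 72.0 and 70.9 FPKM in the DMSO libraries and 210.2, 172 and 176 FPKM in the GDC-0994 libraries. All 3 treated libraries stood above all 3 controls, and replicate 1 was the highest of them. In CPM it went from 704 ± 16.1 to 1816 ± 194, a log2 fold change of 1.37 ± 0.08 (SE; adjusted p = 8.11e-10). Among protein-coding genes ranked by count, COL1A1 was at rank 141 to 156 with DMSO and at rank 31 to 40 with GDC-0994.

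COL5A1 and COL5A2 encode the chains of type V collagen, which starts fibrils of type I and sets their width. COL5A1 was at 8.24, 7.36 and 8.23 FPKM with DMSO and at 22.4, 19.7 and 21.0 FPKM with GDC-0994 (log2 fold change 1.38 ± 0.11, adjusted p = 1.45e-08). COL5A2 was at 7.63, 7.24 and 7.79 FPKM with DMSO and at 25.9, 24.5 and 23.3 FPKM with GDC-0994 (1.67 ± 0.08, adjusted p = 2.93e-11). The groups did not overlap for either gene. The ratio of COL5A1 to COL5A2 per full exon length was 1.05 ± 0.0317 (SD, n = 3) with DMSO and 0.857 ± 0.0489 with GDC-0994. Per longest coding transcript it was 1.32 ± 0.0398 and 1.07 ± 0.0614.

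The other 2 fibrillar rises were of sparse transcripts. COL3A1, the chain of type III collagen of stretchable tissues, had 1, 0 and 0 counts with DMSO and 20, 12 and 15 counts with GDC-0994. Scaled to library size this is a ratio of 46.3, with an exact 95% counting interval of 7.91 to 1867, and the level was 0.157 FPKM at most. The call was kept without KHM-5M DMSO replicate 1, where the fitted log2 value moved from 5.06 to 6.88. COL5A3, a further type V chain, had 5, 2 and 1 counts and 11, 13 and 13 counts (log2 fold change 2.14 ± 0.52, adjusted p = 0.00245). Without KHM-5M DMSO replicate 1 the COL5A3 value was 2.94 (adjusted p = 0.00154). COL11A1, of the cartilage fibril type XI, was not tested, with 2, 0 and 0 counts with DMSO and 12, 7 and 15 with GDC-0994, a ratio of 16.7 with a counting interval of 4.29 to 144. COL27A1 (-0.23 ± 0.11, adjusted p = 0.0875) and COL11A2 (0.67 ± 0.40, adjusted p = 0.172) did not pass the test.

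Of the markers of fibroblasts and pericytes, PDGFRB and THY1 were higher in the treated KHM-5M libraries, and PDGFRA was not. The summed level of PDGFRA, PDGFRB, THY1 and FAP was 75.1 to 83.8 CPM with DMSO and 154 to 184 CPM with GDC-0994 in KHM-5M, and 1.01 to 2.35 CPM in TTA-1. PDGFRB and THY1 carried this sum. In KHM-5M, PDGFRB had 457 to 577 counts per library with DMSO and 1558 to 1967 with GDC-0994. THY1 had 835 to 940 and 1095 to 1502 there. PDGFRA had 8 to 11 counts with DMSO and 5 to 10 with GDC-0994 in KHM-5M, and FAP had 1 to 2 and 2 to 4. FAP had 0 counts in TTA-1 DMSO. The part of these markers in the fibrillar rises was not tested.

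Type I collagen is usually a heterotrimer of COL1A1 and COL1A2 chains, though COL1A1 chains can also form a homotrimer. COL1A2 (ENSG00000164692, plus strand of chromosome 7, 94394561 to 94431232) had 0, 0 and 1 counts in the KHM-5M DMSO libraries, in which COL1A1 had 12166, 12418 and 12388 counts. With GDC-0994, COL1A2 had 7, 6 and 2 counts beside 38619, 30251 and 28315 counts of COL1A1. The summed counts stood at 36972 to 1, a ratio with an exact 95% counting interval from 6635, and after treatment at 97185 to 15, a ratio of 6479 (3928 to 11577). Both intervals cover counting error only, here and below, since PCR reads without molecular identifiers are not independent molecules. In TTA-1, COL1A1 had 37 to 60 counts and COL1A2 had 0 to 4 counts per library.

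Chains of other types were unequal as well. COL6A1, COL6A2 and COL6A3 encode the chains of type VI, yet COL6A3 was at 0.669 ± 0.0805 FPKM (SD, n = 3) in KHM-5M DMSO, where COL6A2 stood 67.2 ± 10.2 times higher per length. In TTA-1, COL6A3 had 1, 1 and 3 counts with DMSO and 0, 2 and 1 with GDC-0994, while COL6A2 had 3353 to 4867 counts. Of type IX, a FACIT whose textbook form joins COL9A1, COL9A2 and COL9A3 chains, COL9A1 had 0 counts in all 12 libraries, which allows up to 0.158 to 0.207 CPM per library. COL4A1 and COL4A2, the chains of the common type IV network, were at 6.55 ± 0.120 and 14.8 ± 0.440 FPKM in KHM-5M DMSO, a ratio of 0.443 ± 0.00539 per full exon length and 0.333 ± 0.00404 per coding transcript. COL5A1 and COL5A2 were near equal per full exon length in KHM-5M DMSO, as above, and at a ratio of 1.32 ± 0.0398 per coding transcript. In TTA-1 DMSO their ratio was 7.91 ± 0.849 per full exon length and 9.92 ± 1.07 per coding transcript.

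**Figure D3:**
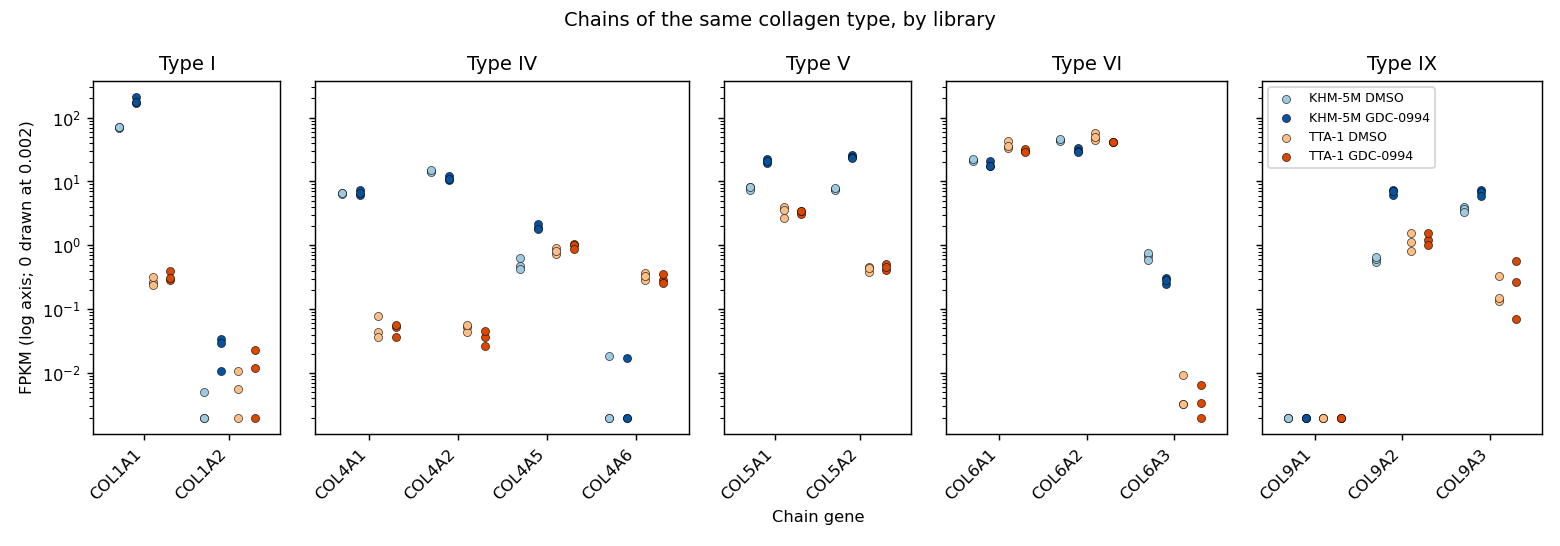
FPKM (log axis, 0 drawn at 0.002) of the chains of types I, IV, V, VI and IX in each of the 12 libraries, coloured by group. COL1A2, COL6A3 and COL9A1 lie far below the other chains of their types. Per full exon length, as drawn, COL9A2 moves from below COL9A3 to its level in KHM-5M with GDC-0994.

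Of the 5 FACIT genes tested, 4 rose in KHM-5M (COL9A2, COL9A3, COL12A1 and COL14A1) and COL16A1 fell, with a class median of 1.17. Over all genes tested, 24.6% rose and 25.1% fell. COL14A1 passed the filter on low counts only with the treated libraries included, so its rise adds no support to this count. COL9A2 (ENSG00000049089, minus strand of chromosome 1, 40300487 to 40317813), a type IX chain known from cartilage, showed the largest rise of any collagen gene that reached 1 FPKM. It was at 0.544, 0.621 and 0.666 FPKM with DMSO and at 7.24, 6.24 and 6.98 FPKM with GDC-0994, with a wide gap between the groups. The log2 fold change was 3.45 ± 0.20 (adjusted p = 4.70e-10), and the ratio of COL9A2 to COL9A3 per full exon length went from 0.169 ± 0.0308 to 1.02 ± 0.152. Per longest coding transcript the ratio went from 0.128 ± 0.0234 to 0.778 ± 0.116. COL9A3 itself was at 3.93, 3.68 and 3.33 FPKM and at 7.46, 6.89 and 5.84 FPKM (0.86 ± 0.23, adjusted p = 0.00541), and DESeq2 did not call it (adjusted p = 0.182). An exon of COL9A3 overlaps TCFL5 on the other strand over 45 bases, and the library type does not mark strand.

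COL12A1, a FACIT on the surface of type I fibrils, was at 4.13, 4.81 and 4.27 FPKM with DMSO and at 10.02, 9.46 and 10.8 FPKM with GDC-0994 in KHM-5M (log2 fold change 1.17 ± 0.09, adjusted p = 2.32e-08). COL14A1, which also binds type I fibrils, went from 5, 2 and 3 counts to 38, 36 and 48 counts (3.55 ± 0.43, adjusted p = 3.24e-06) and stayed below 1 FPKM. COL16A1, which links fibrils to their surroundings, fell from 1.52, 1.61 and 1.88 FPKM to 1.03, 1.15 and 0.922 FPKM (-0.72 ± 0.16, adjusted p = 0.00143). The remaining FACIT genes had 0 to 6 counts in every library.

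The promoter of COL9A2 is shown because the gene had the largest rise among expressed members. For 32 of the 44 collagen genes, RefSeq promoter sequences (GRCh38.p14, 250 bases before to 50 after the start) were matched by symbol. Those not matched were COL1A1, COL1A2, COL2A1, COL3A1, COL5A2, COL6A1, COL6A5, COL8A1, COL9A3, COL14A1, COL20A1 and COL22A1. Each was searched on both strands for the GC box GGGCGG, the CCAAT box CCAAT, the TATA box TATAAA, an AP-1 site TGANTCA and an ETS site CCGGAAG, none of which contains another. Capitals in the sequences mark matches on either strand. The COL9A2 window, chr1:40317237-40317536 on the minus strand, has 71.7% G and C and holds GGGCGG at 3 places, of which those nearest the start share a base.
COL9A2: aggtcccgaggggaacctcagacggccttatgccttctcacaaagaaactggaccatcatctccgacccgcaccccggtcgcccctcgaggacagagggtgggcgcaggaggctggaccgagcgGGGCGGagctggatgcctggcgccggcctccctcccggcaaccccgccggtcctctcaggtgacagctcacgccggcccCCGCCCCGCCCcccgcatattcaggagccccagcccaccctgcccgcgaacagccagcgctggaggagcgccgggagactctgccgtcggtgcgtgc
A GC box was found in 45% of all 35116 promoters of this length and in 24 of the 44 windows of the 32 collagen genes, some of which have several start sites. The AP-1 letters were in 7.71% of all promoters and in 1 collagen window (COL10A1), the ETS letters in 10.3% and in 0 collagen windows, the TATA letters in 11.5% and in 8, and the CCAAT letters in 34.6% and in 14. A match is a description of the letters, and no match says nothing of a factor.

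The 2 transmembrane genes tested fell further than any other collagen gene in KHM-5M. COL17A1 (ENSG00000065618, minus strand of chromosome 10, 104031286 to 104085957) encodes a hemidesmosome protein that anchors epithelial cells to the basement membrane. It had 98, 93 and 76 counts with DMSO and 4, 5 and 2 with GDC-0994, and its mean went from 0.710 ± 0.0924 to 0.0290 ± 0.0112 FPKM (log2 fold change -4.57 ± 0.35, adjusted p = 1.40e-08). COL13A1 (ENSG00000197467, plus strand of chromosome 10, 69801867 to 69964275), a membrane collagen of cell-matrix contacts, was at 6.92, 7.07 and 6.39 FPKM with DMSO and at 0.644, 0.664 and 0.591 FPKM with GDC-0994. The groups were far apart, with a log2 fold change of -3.45 ± 0.14 (adjusted p = 3.17e-12), and COL13A1 went from expressed to below 1 FPKM. By the longest coding transcript it stayed above 1 FPKM, at 1.17 ± 0.0701 FPKM with GDC-0994. COL25A1, also of this class, had 0 counts with DMSO and 1, 1 and 2 with GDC-0994, and COL23A1 had 0 in all libraries.

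The promoters of COL13A1 and COL17A1 are shown because these 2 genes were called lower under GDC-0994 in both lines. The COL13A1 window is chr10:69801656-69801955 on the plus strand and that of COL17A1 chr10:104085831-104086130 on the minus strand. Both hold the letters TATAAA, more than 200 bases before the start, and COL17A1 also holds CCAAT on the opposite strand.
COL13A1: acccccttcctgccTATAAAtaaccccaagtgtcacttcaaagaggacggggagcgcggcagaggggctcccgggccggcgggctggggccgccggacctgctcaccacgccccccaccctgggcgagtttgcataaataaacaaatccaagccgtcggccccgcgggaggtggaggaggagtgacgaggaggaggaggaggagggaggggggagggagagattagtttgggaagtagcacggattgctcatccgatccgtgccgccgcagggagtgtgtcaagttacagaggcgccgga
COL17A1: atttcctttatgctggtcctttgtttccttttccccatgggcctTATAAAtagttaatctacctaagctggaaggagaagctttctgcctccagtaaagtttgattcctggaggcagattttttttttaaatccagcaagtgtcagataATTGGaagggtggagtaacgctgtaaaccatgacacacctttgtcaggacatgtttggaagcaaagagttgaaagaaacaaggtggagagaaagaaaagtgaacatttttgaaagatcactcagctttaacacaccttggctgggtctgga
The windows differ in base composition, with 64% G and C in COL13A1 and 40.7% in COL17A1. Neither holds the AP-1, ETS or GC box letters.

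All 3 type VI genes tested fell in KHM-5M, with a class median of -0.55. COL6A3 had 236, 258 and 205 counts with DMSO and 112, 86 and 93 with GDC-0994 (log2 fold change -1.29 ± 0.17, adjusted p = 9.12e-06). COL6A2 was at 44.6, 43.0 and 45.6 FPKM and then at 33.5, 29.9 and 29.1 FPKM (-0.55 ± 0.08, adjusted p = 4.16e-05). COL6A1 was at 21.6, 21.2 and 22.9 FPKM and then at 20.7, 17.7 and 17.3 FPKM, a small fall with ranges that lie close but do not overlap (-0.27 ± 0.09, adjusted p = 0.0271). That call was lost in 15 of 25 alternatives, among them DESeq2 (adjusted p = 0.0568). It was lost without KHM-5M DMSO replicate 1 (0.0948), 2 (0.0760) or 3 (0.160) and without KHM-5M GDC-0994 replicate 2 (0.106) or 3 (0.177).

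Type IV went both ways in KHM-5M, with 1 rise, 1 fall and 3 genes that did not pass. COL4A2 (plus strand of chromosome 13, 110305812 to 110513209) fell from 14.8, 14.3 and 15.2 FPKM to 12.1, 10.6 and 10.99 FPKM (log2 fold change -0.42 ± 0.07, adjusted p = 1.58e-04). Its head-to-head partner COL4A1 (minus strand, 110148963 to 110307233) was at 6.59, 6.41 and 6.64 FPKM and at 7.23, 6.04 and 6.58 FPKM (-0.01 ± 0.10, adjusted p = 0.934). The RefSeq start sites of the pair lie 126 bases apart, so the windows searched share 226 bases. COL4A5, a chain of the basement membranes of kidney glomeruli and other epithelia, rose from 0.477, 0.432 and 0.635 FPKM to 1.85, 2.19 and 1.83 FPKM (1.90 ± 0.15, adjusted p = 1.63e-08). COL4A4 was at 28 to 35 counts and 39 to 53 counts (0.64 ± 0.33, adjusted p = 0.123), and COL4A3 at 2 to 7 counts in KHM-5M.

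COL4A5 and COL4A6 are also neighbours that start in opposite directions, on chromosome X (108439844 to 108697545 and 108155607 to 108439497), and their levels went apart. In KHM-5M, COL4A6 had 0, 0 and 3 counts with DMSO and 3, 0 and 0 with GDC-0994, while COL4A5 had 90 to 134 and 356 to 464. In TTA-1, COL4A6 had 41 to 54 counts with DMSO and COL4A5 had 139 to 169. Their RefSeq start sites lie 379 bases apart and the 2 windows, chrX:108439588-108439887 on the plus strand and chrX:108439409-108439708 on the minus strand, share 121 bases, in which 2 CCAAT boxes in opposite directions lie.
COL4A5: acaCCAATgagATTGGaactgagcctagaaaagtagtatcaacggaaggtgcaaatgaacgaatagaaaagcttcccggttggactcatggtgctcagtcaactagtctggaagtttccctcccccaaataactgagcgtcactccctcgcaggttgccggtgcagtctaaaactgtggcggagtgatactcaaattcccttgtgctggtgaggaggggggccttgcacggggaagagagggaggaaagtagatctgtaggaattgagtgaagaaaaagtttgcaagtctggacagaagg
COL4A6: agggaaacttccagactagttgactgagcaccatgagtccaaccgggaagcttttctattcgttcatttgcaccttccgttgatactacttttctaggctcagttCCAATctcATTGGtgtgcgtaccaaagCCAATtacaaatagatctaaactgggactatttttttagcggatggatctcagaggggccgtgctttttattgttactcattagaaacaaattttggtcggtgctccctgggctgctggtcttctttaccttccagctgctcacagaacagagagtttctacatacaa
The second COL4A6 start in RefSeq lies 1415 bases from that of COL4A5, and the counts do not separate the 2 starts.

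Both network-forming genes tested rose in KHM-5M. COL8A1, a short-chain collagen of vessel walls and the cornea, was at 2.35, 2.60 and 2.52 FPKM and then at 3.79, 4.06 and 4.65 FPKM (log2 fold change 0.71 ± 0.13, adjusted p = 2.71e-04). Its partner chain COL8A2 went from 18, 23 and 20 counts to 70, 42 and 53 (1.41 ± 0.43, adjusted p = 0.0140), and without KHM-5M GDC-0994 replicate 1 its adjusted p was 0.0568. Of the multiplexins, whose tails release antiangiogenic fragments, COL15A1 went from 9, 12 and 5 counts to 48, 54 and 47 (2.48 ± 0.39, adjusted p = 1.03e-04). COL18A1 was at 16.2, 15.2 and 17.5 FPKM and at 22.2, 18.7 and 18.5 FPKM (0.25 ± 0.14, adjusted p = 0.147). Leaving out 1 library, TTA-1 DMSO replicate 1 or 2, made COL18A1 a call (adjusted p = 0.0395 and 0.0241). Exons of COL18A1 overlap SLC19A1 on the other strand over 1401 bases, 16.4% of its length, so its counts are uncertain. COL7A1, whose product anchors the basement membrane to the tissue beneath, was at 8.02, 8.43 and 8.73 FPKM and at 9.40, 8.36 and 8.83 FPKM (0.05 ± 0.10, adjusted p = 0.695).

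**Figure D4:**
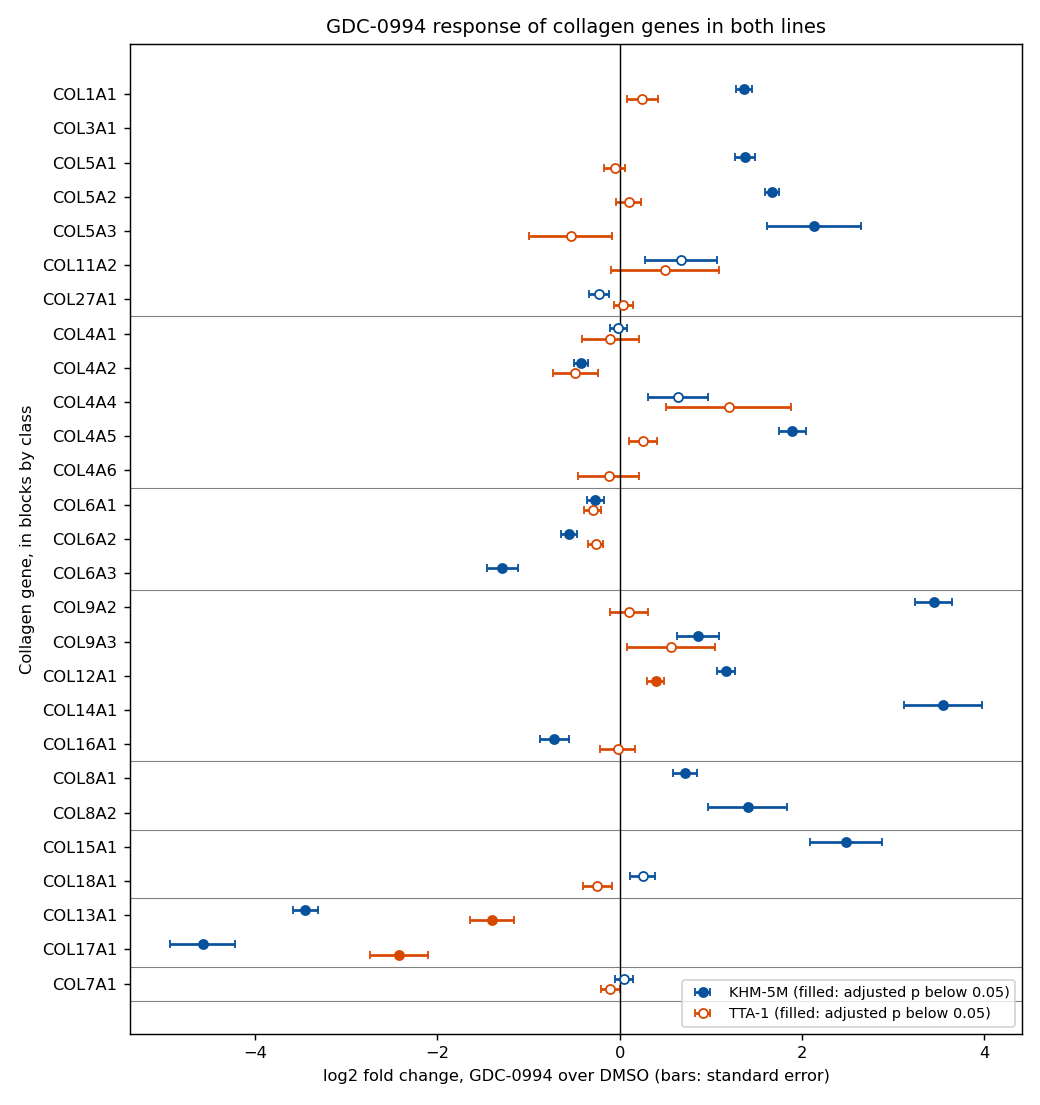
log2 fold change of GDC-0994 over DMSO with its standard error for the tested collagen genes in KHM-5M (blue) and TTA-1 (orange), in blocks by class, filled where called; a gene with 3 or fewer summed counts in a group of that line is left out. COL13A1 and COL17A1 are the 2 genes called lower in both lines. The fibrillar genes COL1A1, COL5A1, COL5A2 and COL5A3 lie at 1.37 to 2.14 in KHM-5M and at -0.54 to 0.25 in TTA-1. The fibrillar genes COL11A2 (0.67) and COL27A1 (-0.23) were not called in KHM-5M.

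The next comparison asks the same of the BRAF wild-type line. In TTA-1, 3 of the 27 collagen genes were called, where 3.43% of all genes were. Among them 1 rose (COL12A1, background 1.18%) and 2 fell (COL13A1 and COL17A1, background 2.24%). As given above, COL17A1 passed the filter on low counts only with DMSO libraries, where it is high. Those of KHM-5M were enough without those of TTA-1. The median log2 fold change was 0.04, beside 0.01 over all genes, and it was 0.01 with COL3A1 and COL8A2 at their lower bounds and COL15A1 left out.

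COL17A1 had 53, 42 and 58 counts with DMSO and 5, 15 and 7 with GDC-0994 in TTA-1 (log2 fold change -2.42 ± 0.32, adjusted p = 2.86e-04). COL13A1 had 39, 28 and 30 counts and 8, 14 and 13 counts (-1.40 ± 0.24, adjusted p = 0.00298). The groups did not overlap for either gene. COL12A1 was at 11.6, 14.8 and 12.7 FPKM with DMSO and at 16.6, 16.6 and 18.2 FPKM with GDC-0994 (0.39 ± 0.09, adjusted p = 0.0231). The COL12A1 call was lost without TTA-1 DMSO replicate 1 (adjusted p = 0.0864) or 3 (0.0874) and without TTA-1 GDC-0994 replicate 2 (0.0539) or 3 (0.135). In a model of the TTA-1 groups alone, COL12A1 (adjusted p = 0.0888) and COL13A1 (0.0627) did not pass.

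The 2 most abundant collagen genes of TTA-1 did not pass the test. COL6A1 was at 42.8, 33.0 and 36.1 FPKM with DMSO and 29.5, 32.2 and 29.5 FPKM with GDC-0994 (-0.29 ± 0.09, adjusted p = 0.104). COL6A2 was at 57.3, 44.0 and 49.1 FPKM and 40.9, 42.0 and 42.0 FPKM (-0.26 ± 0.08, adjusted p = 0.108). Every DMSO library stood above every treated one for both genes. Without TTA-1 DMSO replicate 2 both were called lower (adjusted p = 0.00346 and 0.00193), as were COL18A1 (0.0293) and, higher, COL8A1 (0.0381), for 7 calls in place of 3. In that setting 15.7% of all genes tested were called, in place of 3.43%. Log ratios of TTA-1 DMSO replicates 1 and 2 to their group mean correlated with the GC content of genes at 0.69 and -0.67 (over 10966 genes, not independent), and those of KHM-5M GDC-0994 replicates 1 and 3 at 0.57 and -0.53. With GC and length trends removed the number of collagen calls was 21 in KHM-5M and 3 in TTA-1, where 55.1% and 6.1% of all genes were called.

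Of the 7 fibrillar genes, edgeR called 0 in TTA-1, with 1 at an unadjusted p below 0.05 (COL3A1), and DESeq2 and limma called 0. COL1A1 had 42, 37 and 52 counts with DMSO and 44, 60 and 45 with GDC-0994 (0.25 ± 0.17, adjusted p = 0.482). COL5A1 was at 3.97, 2.70 and 3.63 FPKM and at 3.13, 3.39 and 3.39 FPKM (-0.05 ± 0.11, adjusted p = 0.867). COL9A2 was at 1.58, 0.806 and 1.13 FPKM and at 1.21, 1.54 and 1.01 FPKM (0.10 ± 0.21, adjusted p = 0.859). COL3A1 had 0 counts with DMSO and 5, 1 and 2 with GDC-0994, at least 2.79-fold higher against a floor of 3 counts over the group (adjusted p = 0.110). COL8A2 had 0 counts with DMSO and 10, 1 and 0 with GDC-0994, at least 3.83-fold higher by the same floor (adjusted p = 0.146), a value that rests on replicate 1. COL8A2 was called in DESeq2 (adjusted p = 0.0259) and in edgeR without the filter on low counts (0.00836), and its adjusted p without TTA-1 GDC-0994 replicate 1 was 0.528.

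The difference between the GDC-0994 effects, KHM-5M minus TTA-1, was tested by the interaction term. It was called for 10 of 27 collagen genes, where 27.9% of all genes were. Of these, 7 were more positive in KHM-5M (background 12.3%) and 3 more negative (background 15.6%), with a median over the 27 genes of 0.09 beside 0.02 over all genes. COL5A3, among the 7, passed the filter on low counts only with the KHM-5M GDC-0994 libraries included, so it adds no support to that count. Among the 22 genes that passed without those libraries, 6 were more positive and 3 more negative, with a median of 0.08. The fibrillar genes COL1A1 (1.12 ± 0.19, adjusted p = 2.58e-04), COL5A1 (1.43 ± 0.16, adjusted p = 2.27e-06), COL5A2 (1.57 ± 0.16, adjusted p = 9.98e-07) and COL5A3 (2.68 ± 0.69, adjusted p = 0.00805; 3.48 without KHM-5M DMSO replicate 1) were among the 7. The others were COL4A5 (1.64 ± 0.21, adjusted p = 1.48e-05), COL9A2 (3.35 ± 0.30, adjusted p = 2.02e-07) and COL12A1 (0.77 ± 0.13, adjusted p = 2.52e-04). Values for COL13A1 (-2.05 ± 0.30, adjusted p = 7.11e-05) and COL17A1 (-2.15 ± 0.55, adjusted p = 0.00758) showed a larger fall in KHM-5M, although both genes fell in TTA-1 as well. Without TTA-1 GDC-0994 replicate 2 the COL17A1 difference was -1.55 (adjusted p = 0.0685). COL16A1 (-0.69 ± 0.25, adjusted p = 0.0471) lost its call in 17 of 24 alternatives. Of the 3 type VI genes, edgeR and DESeq2 called 0 differences, with 1 at an unadjusted p below 0.05 in edgeR. COL6A1 was at 0.03 ± 0.13 (adjusted p = 0.929) and COL6A2 at -0.29 ± 0.12 (adjusted p = 0.0830), which was a call without KHM-5M GDC-0994 replicate 1 (0.0444) or TTA-1 DMSO replicate 1 (0.0161). COL14A1 (3.49 ± 1.30, adjusted p = 0.0553) was a call without KHM-5M DMSO replicate 1 (0.0476) or TTA-1 GDC-0994 replicate 3 (0.0367), and COL18A1 (0.50 ± 0.21, adjusted p = 0.0918) and COL7A1 (0.15 ± 0.14, adjusted p = 0.474) without TTA-1 DMSO replicate 2 (0.00218 and 0.0464).

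The last comparison sets the lines side by side with DMSO. It was called for 25 of 27 collagen genes, where 76.5% of all genes were. In KHM-5M 17 were higher (background 39.6%) and 8 were lower (background 36.8%). COL4A4, COL6A3, COL8A1, COL8A2, COL11A2 and COL15A1 passed the filter on low counts only with KHM-5M libraries included. COL4A6 passed it only with TTA-1 libraries, and COL5A3 only with both TTA-1 DMSO and KHM-5M GDC-0994. Each of these genes was called higher in a line that it needed to pass, so these calls add no support to the counts. The median log2 difference, KHM-5M over TTA-1, was 1.49, beside 0.03 over all genes, and 1.47 with COL8A2 and COL15A1 at their bounds and COL3A1 left out. COL3A1 and COL14A1 did not pass.

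Of the type IV genes, 3 were higher in KHM-5M and 2 lower, beside 39.6% and 36.8% of all genes. COL4A4 and COL4A6 passed the filter only with the line where they are higher, as given above, and add no support to these counts. COL4A2 was at 14.3 to 15.2 FPKM in KHM-5M DMSO and at 0.0432 to 0.0568 FPKM in TTA-1 DMSO (log2 difference 8.14 ± 0.12, adjusted p = 7.36e-18). COL4A1 was at 6.41 to 6.64 FPKM and at 0.0372 to 0.0774 FPKM (6.92 ± 0.16, adjusted p = 8.13e-16). COL4A5 was lower in KHM-5M (-0.70 ± 0.16, adjusted p = 6.44e-04). COL4A6 had 145 counts in TTA-1 against 3 in KHM-5M, a ratio of 54.7 with a counting interval of 18.3 to 268. The 3 counts lie in KHM-5M DMSO replicate 3, without which the fitted log2 value moved from -5.60 to -8.67. COL4A4 was higher in KHM-5M (3.29 ± 0.53, adjusted p = 2.51e-05), and without TTA-1 DMSO replicate 2 its value was 4.07.

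COL1A1 was 7.96 ± 0.13 higher in KHM-5M on the log2 scale (adjusted p = 1.16e-17), COL5A2 was 4.10 ± 0.11 higher (adjusted p = 2.69e-15) and COL5A1 1.19 ± 0.11 higher (adjusted p = 4.04e-08). COL11A2 (1.42 ± 0.52, adjusted p = 0.0196) was higher too, a call lost without KHM-5M DMSO replicate 1 (0.102) or TTA-1 DMSO replicate 3 (0.101). The fibrillar genes COL27A1 (-0.60 ± 0.11, adjusted p = 6.20e-05) and COL5A3 (-1.98 ± 0.53, adjusted p = 0.00291) were lower, and COL5A3 stood at -2.75 without KHM-5M DMSO replicate 1. COL8A1 had 1247 counts in KHM-5M and 2 in TTA-1, a ratio of 551 with a counting interval of 152 to 4555. Both TTA-1 counts lie in DMSO replicate 2, without which the fitted log2 value of COL8A1 moved from 8.87 to 11.61. COL8A2 had 61 against 0 counts, at least 17.97-fold higher, and COL15A1 26 against 0, at least 7.66-fold higher. COL18A1 (2.11 ± 0.15, adjusted p = 1.24e-09) and COL7A1 (1.38 ± 0.10, adjusted p = 1.91e-09) were higher in KHM-5M by smaller amounts.

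Among FACIT genes, COL9A3 (4.13 ± 0.34, adjusted p = 8.64e-09) and COL16A1 (1.49 ± 0.17, adjusted p = 5.57e-07) were higher in KHM-5M, while COL12A1 (-1.59 ± 0.10, adjusted p = 1.19e-10) and COL9A2 (-0.96 ± 0.23, adjusted p = 0.00114) were lower. Both transmembrane genes were higher, COL13A1 by 4.27 ± 0.15 (adjusted p = 1.36e-13) and COL17A1 by 0.63 ± 0.23 (adjusted p = 0.0232). The COL17A1 call was lost without KHM-5M DMSO replicate 1 (0.0858) or 2 (0.0705), without TTA-1 DMSO replicate 2 (0.0907), and with GC and length trends removed (0.492). COL6A3 was 6.85 ± 0.32 higher (adjusted p = 4.86e-12; 7.51 without TTA-1 DMSO replicate 3), COL6A1 was lower (-0.79 ± 0.09, adjusted p = 7.45e-07), and COL6A2 (-0.20 ± 0.08, adjusted p = 0.0427) lost its call in 22 of 25 alternatives.

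Genes that modify, fold and export collagen were measured beside it, from a list of 23, all tested. In KHM-5M, 11 rose, 4 fell and 8 did not pass (median 0.30), read against the same 49.8% of all genes. P3H2, a prolyl 3-hydroxylase of type IV collagen, went from 10.8 ± 0.807 to 37.8 ± 4.91 CPM (log2 fold change 1.80 ± 0.10, adjusted p = 1.19e-10). PLOD2, a lysyl hydroxylase that shapes cross-links, went from 73.0 ± 3.87 to 166 ± 23.3 CPM (1.19 ± 0.12, adjusted p = 3.71e-07). PLOD3, which hydroxylates and glycosylates lysines, fell from 206 ± 6.91 to 117 ± 4.27 CPM (-0.81 ± 0.07, adjusted p = 3.83e-08), and P3H3 fell by 0.73 ± 0.16 (adjusted p = 0.00102). In TTA-1 1 of 23 was called, beside 3.43% of all genes, P4HA2, a prolyl 4-hydroxylase subunit (0.32 ± 0.08, adjusted p = 0.0431). With DMSO, P3H2 (-5.21 ± 0.10, adjusted p = 9.78e-17) and PLOD2 (-2.80 ± 0.12, adjusted p = 2.68e-12) were lower in KHM-5M than in TTA-1, the line with the smaller share of collagen counts. The GDC-0994 effect differed between the lines for P3H2 (1.73 ± 0.12, adjusted p = 1.66e-08), PLOD2 (1.12 ± 0.17, adjusted p = 6.58e-05) and PLOD3 (-0.61 ± 0.10, adjusted p = 1.30e-04). FKBP10, a collagen chaperone (3.46 ± 0.12, adjusted p = 9.60e-14), and CREB3L1, a transcription factor of collagen genes (3.22 ± 0.11, adjusted p = 7.11e-14), were higher in KHM-5M.

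Of 13 tested genes of procollagen cleavage and cross-linking, 9 rose, 3 fell and 1 did not pass in KHM-5M (median 0.55), where 24.6% of all genes rose and 25.1% fell. ADAMTS14, among the 9, was at a mean of 1.48 CPM in KHM-5M GDC-0994 and at 0.518 CPM or less in the other groups. It passed the filter on low counts through the treated KHM-5M libraries, so any call of it adds no support to the counts of this list. BMP1, the procollagen C-proteinase, went from 35.2 ± 2.70 to 88.5 ± 4.55 CPM (1.33 ± 0.13, adjusted p = 2.26e-07), and the lysyl oxidase gene LOXL4 from 2.24 ± 0.513 to 9.44 ± 0.389 CPM (2.07 ± 0.15, adjusted p = 4.51e-09). TLL2, a related proteinase (-1.75 ± 0.35, adjusted p = 5.91e-04), and PCOLCE2, an enhancer of that cleavage (-0.66 ± 0.13, adjusted p = 4.05e-04), fell. In TTA-1, edgeR called 0 of the 13, with 2 at an unadjusted p below 0.05, and DESeq2 called 1. The difference between the lines' responses was called for 7 of 13, where 27.9% of all genes were, among them LOXL4 (2.18 ± 0.18, adjusted p = 9.19e-08), BMP1 (1.33 ± 0.18, adjusted p = 3.41e-05) and PCOLCE2 (-0.61 ± 0.15, adjusted p = 0.00662). Between lines, LOXL1 had a ratio of 3235 (counting interval 895 to 26718) and PXDN, the peroxidase that cross-links type IV collagen, was 7.29 ± 0.16 higher in KHM-5M (adjusted p = 3.52e-16), while LOXL4 (-4.38 ± 0.14, adjusted p = 2.69e-14) and PCOLCE2 (-3.97 ± 0.11, adjusted p = 3.97e-15) were lower.

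Of 8 tested collagen receptor and uptake genes, 5 rose, 1 fell and 2 did not pass in KHM-5M (median 0.41), beside the same 24.6% and 25.1% of all genes. DDR2, a receptor kinase for fibrillar collagen, went from 6.40 ± 0.566 to 14.4 ± 2.25 CPM (1.17 ± 0.17, adjusted p = 2.79e-05). GP6, the platelet collagen receptor, had 1 count with DMSO and 82 with GDC-0994, a ratio of 80.8 with a counting interval of 14.1 to 3228. In the other groups GP6 was at a mean of 0.130 CPM or less, so it passed the filter on low counts through the treated KHM-5M libraries. Its calls thus add no support to the counts of this list. ITGA11, an integrin chain for type I collagen, fell from 3.49 ± 0.554 to 0.933 ± 0.295 CPM (-1.89 ± 0.43, adjusted p = 0.00171). In TTA-1 1 of 8 was called, where 3.43% of all genes were. It was ITGA2, the chain of another collagen integrin, from 62.9 ± 10.1 to 22.3 ± 2.21 CPM (-1.49 ± 0.16, adjusted p = 2.88e-05). With DMSO, ITGA2 was also lower in KHM-5M (-1.34 ± 0.16, adjusted p = 6.40e-07), while DDR1, a receptor kinase of epithelial cells (1.85 ± 0.11, adjusted p = 1.27e-10), and MRC2, which takes up collagen (4.77 ± 0.16, adjusted p = 8.22e-14), were higher there. The difference between the lines' responses was called for 3 of 8, beside 27.9% of all genes. These were ITGA2 (1.32 ± 0.23, adjusted p = 2.77e-04), ITGB1, the shared beta chain (0.49 ± 0.10, adjusted p = 9.57e-04), and GP6 (adjusted p = 0.00285), whose value rests on the 1 count in KHM-5M with DMSO.

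Of 8 listed proteoglycan genes of collagen fibrils 3 had enough counts to be tested, and these 3 rose in KHM-5M (median 2.12), where 24.6% of all genes rose. In TTA-1 edgeR called 0 of 3, DESeq2 0, and 0 had an unadjusted p below 0.05. FMOD, without counts there, could not be called, and LUM was at means of 0.0421 CPM with DMSO and 0.0230 CPM with GDC-0994. For these genes the 0 calls in TTA-1 do not show a lack of response. LUM (lumican) went from 4.73 ± 0.533 to 41.1 ± 3.17 CPM (3.12 ± 0.16, adjusted p = 8.43e-11) and FMOD (fibromodulin) from 1.35 ± 0.105 to 5.89 ± 1.03 CPM (2.12 ± 0.24, adjusted p = 1.09e-05). FMOD had 0 counts in TTA-1, and LUM 2 counts there with DMSO against 248 in KHM-5M. TGFB2, a growth factor that raises collagen transcription, went from 21.3 ± 1.71 to 147.6 ± 13.8 CPM in KHM-5M (2.79 ± 0.11, adjusted p = 2.09e-12). Its GDC-0994 effect, KHM-5M minus TTA-1, differed between the lines by 2.54 ± 0.15 (adjusted p = 2.20e-09). SPARC, a collagen-binding glycoprotein, went from 487 ± 3.76 to 992 ± 63.7 CPM (1.03 ± 0.08, adjusted p = 1.18e-08). TGFB1, a growth factor of the same family as TGFB2, fell in TTA-1 (-0.51 ± 0.11, adjusted p = 0.0140). TGFB3 was lower in KHM-5M than in TTA-1 with DMSO (-1.24 ± 0.19, adjusted p = 1.23e-05), and SPARC (7.54 ± 0.12, adjusted p = 9.93e-18) and TGFB1 (0.63 ± 0.11, adjusted p = 4.16e-05) were higher.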

How the data were processed

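RNA was sequenced from 12 libraries in 4 groups of 3. Per the labels' protocols, mRNA was selected on poly-T beads and primed with random hexamers, with no step that marks strand. Per the submitters' processing notes, CASAVA, HISAT2 2.0.5, featureCounts 1.5.0-p3 and GRCh38 were used. The authors deposited raw counts per gene and FPKM, which here equals the count over the union exon length and 1 library size. In edgeR 4.0.16 (R 4.3.3), genes kept by filterByExpr (minimum count 10, total 15) were scaled by TMM and tested with glmQLFit and glmQLFTest in 1 model of 12 libraries with 8 residual degrees of freedom, adjusted by Benjamini-Hochberg over 16218 genes, after a check on simulated data. SE is the fold change over the root of F. Members and lists were chosen with earlier results of these data known. All collagen genes are accounted for. Of each other list, up to 2 called rises and falls per comparison, by smallest p with at least 1 CPM in the higher group, are named. ADAMTS14 is named as well, for the way it passed the filter. Alternatives used DESeq2 1.42.0, limma 3.58.1 on log2(FPKM + 1) or log2(FPKM + 0.1), other filters and scalings, GC and length trends, a replicate block, and leaving out libraries. For treated KHM-5M the sample descriptions give the same column name 3 times, so its columns were matched to samples by replicate number. Some genes of the marker and matrix-regulating lists are not reported here.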

Additional observations from a re-analysis of the deposited data

Results flagged for a closer look

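For 10 collagen genes the GDC-0994 effect differed between the lines by the interaction term in edgeR, given here as the log2 effect in KHM-5M minus that in TTA-1. It was positive for COL9A2 (3.35), COL5A3 (2.68), COL4A5 (1.64), COL5A2 (1.57), COL5A1 (1.43), COL1A1 (1.12) and COL12A1 (0.77). It was negative for COL16A1 (-0.69), COL13A1 (-2.05) and COL17A1 (-2.15). COL13A1 and COL17A1 fell in both lines and COL12A1 rose in both, so for these 3 genes the size differed and not the direction. In a model of the TTA-1 groups alone, COL12A1 and COL13A1 were not called in TTA-1. The difference for COL16A1 lost its call in 17 of 24 alternatives, and that for COL17A1 without TTA-1 GDC-0994 replicate 2. COL5A3 had 1 to 13 counts per library and passed the filter on low counts only with the KHM-5M GDC-0994 libraries included.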

How the results depend on the processing

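Of 2538 alternative values of single collagen genes, 2400 kept direction and side of the threshold, 99 lost a call, 33 gained one and 6 changed sign as calls. The 6 were differences between the lines' GDC-0994 effects in limma on log2(FPKM + 1), a scale that compresses low genes. They were COL4A2 -0.35 and COL8A1 0.54, each with and without a filter at 1 FPKM, and COL8A2 0.35 and COL15A1 0.40 without it. The count of called collagen genes in KHM-5M (20) was 12 and 11 in limma with that filter (log2(FPKM + 1) and log2(FPKM + 0.1)), where 17 were tested, and 10 with a minimum log2 fold change of 1. In TTA-1 (3) it was 6 without a filter on low counts, 1 in a model of the TTA-1 groups alone, 1 in each of the 3 limma fits, and 0 with the minimum fold change in edgeR, where 4 had an unadjusted p below 0.05 and DESeq2, without a minimum, called 4. The difference (10) was 17 of the 40 genes tested in limma without a filter, 16 of them among the 27 (the other was COL11A1), and 5 with the minimum fold change, and the DMSO comparison (25) was 16 in both filtered limma fits. Leaving out 1 library gave 19 to 22, 2 to 7, 8 to 11 and 22 to 25 calls in these 4 comparisons. As shares of protein-coding FPKM, collagen genes took 0.0898% and 0.145% in KHM-5M and 0.0461% and 0.0425% in TTA-1 (DMSO, GDC-0994). The replicate numbers were not taken as pairs: correlations of same-numbered libraries' deviations were -0.0387 to 0.163, and not every library correlated best with its own number. With the replicate block the counts were 20, 3, 9 and 23. Upper quartile scaling and leaving out TTA-1 DMSO replicates 1 and 2 together were chosen after seeing the data and gave 19 and 23 calls in KHM-5M and 3 and 3 in TTA-1. Genes with under about 10 counts per library are limited by depth.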
